A study of Sus scrofa with 48 samples.

Results

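The genes described here are the heat shock proteins and the DNAJ proteins, the chaperones that fold, refold or hand over other proteins. They were chosen by name alone, as every gene whose symbol starts with DNAJA, DNAJB, DNAJC, HSPA, HSPB, HSPD, HSPE, HSPH or HSP90. Of 22924 genes in the count table, 14894 had a symbol and 63 carried such a name. A gene was kept when it had 10 or more counts in 6 or more libraries of hypothalamus or of ileum, which left 61 genes, 61 in hypothalamus and 60 in ileum. DNAJC5B, which reached at most 2 counts in any ileum library, was the gene kept in hypothalamus only, and HSPB3 and HSPB9 were not kept in either tissue. By family the 63 names were 39 DNAJ genes, 11 HSPA genes, 7 HSPB genes, 3 HSP90 genes, and HSPD1, HSPE1 and HSPH1. HSPBP1, an exchange factor of HSP70, and HSPBAP1 share the letters of the rule without being small heat shock proteins. The inducible HSP70 genes HSPA1A and HSPA1B were not matched to an identifier here and have no value, and reads of such near-identical copies may be shared with HSPA1L and HSPA6.

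Chaperones of the HSP70 family, named HSPA, bind unfolded stretches of protein and release them under the control of ATP, with DNAJ proteins delivering the client and starting the ATP cycle. HSP90 proteins act later on clients such as kinases and steroid receptors, small heat shock proteins (HSPB) hold unfolded proteins in solution, and HSPD1 with HSPE1 forms the folding chamber of mitochondria. When unfolded proteins build up in the cytosol the factor HSF1 switches on a set of these genes together, while a separate response of the endoplasmic reticulum switches on HSPA5, HSP90B1 and their DNAJ partners.

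The study measured polyA RNA of weaned piglets (Sus scrofa) in hypothalamus, the brain region that governs feeding and hormones, and in ileum, the last stretch of the small intestine. There were 48 libraries in 8 groups of 6, namely low growth and high growth on day 7 and on day 39 in each tissue, where growth is the daily weight gain since day 0. All piglets share the weaning, and no treatment other than the growth class is given. Litter, sex, pen and batch are not in the labels, nor is it said which hypothalamus and ileum libraries come from the same piglet, so the tissues were treated as unpaired and replicate numbers only name libraries. If some libraries of a group were not from separate animals, the p-values would cover a partly technical spread.

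The total estimated count per library ran from 14.2 to 21.1 M (M for mega) in hypothalamus and from 14.4 to 23.2 M in ileum. Neuron markers summed to at least 597 CPM (counts scaled to library size, not to gene length) in every hypothalamus library and enterocyte markers to at least 3607 CPM in every ileum library, so both tissue names held. Cell makeup varied within tissues, with oligodendrocyte markers between 424 and 158192 CPM in hypothalamus. One library there, day 39 low replicate 1, held 3620 CPM of pituitary markers against at most 8.47 CPM in the other 23. Over all genes, 2 libraries stood apart: ileum day 7 high replicate 5, with the highest value of its tissue for 27.4% of genes, and hypothalamus day 39 low replicate 3, with 19.7%. By mean CPM the chaperone genes that took most counts were HSP90AA1, HSPA8, HSP90AB1, DNAJC7 and HSPA5 in hypothalamus, where by median DNAJC6 (404 CPM) stood before HSPA5 (380 CPM) and DNAJC7 (333 CPM), and HSPA8, HSP90AA1, HSP90AB1, HSPA5 and HSP90B1 in ileum, an order that also depends on gene length.

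The pattern that stood out most in the chaperone genes lay in 1 library of each tissue and not between the groups. In hypothalamus the 61 genes took 2.03% of all counts in day 7 low replicate 5, against 0.98 to 1.26% in the other 23 libraries. In ileum they took 2.86% in day 7 low replicate 5, against 0.83 to 1.42% in the other 23. Replicate numbers follow the order of the series, so the shared number 5 does not show that both come from 1 piglet. Growth classes follow the same order in both tissues, so equal numbers may mark the same piglet, which the labels do not say. In both, most heat shock genes of the cytosol lay above the other 5 libraries of the group. At least 2 times their median was reached by 8 of 13 in hypothalamus and 12 of 13 in ileum. A single library allows no test, and the comparison with the other 5 libraries, with its limit of 2 times their median, was chosen after the values were seen.

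HSP90AA1, the inducible form of HSP90, lay on an unplaced scaffold of the Sscrofa11.1 build. In hypothalamus on day 7 its low growth libraries ran from 2065 to 6540 CPM with a median of 2725 CPM, and its high growth libraries from 2440 to 3616 CPM with a median of 3070 CPM. The 6540 CPM of replicate 5 was 2.83 times the median of the other 5, which was 2312 CPM. In ileum replicate 5 had 8307 CPM, 5.86 times the 1417 CPM of the other 5, and none of the other 23 ileum libraries passed 2202 CPM. Replicate 5 lay above all other libraries in both tissues, and the remaining low growth libraries overlapped the high growth ones.

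HSPH1, the HSP110 exchange factor of HSP70 (chr11:7733874-7759528 in Sscrofa11.1), showed the same picture more sharply. It stood at 801 CPM in hypothalamus replicate 5, and the highest of the other 23 libraries had 327 CPM. In ileum it stood at 1418 CPM against 108 to 411 CPM, which was 7.57 times the median of the other 5. Its partner DNAJB1, the main heat-inducible DNAJ protein of the cytosol (chr2:64761672-64764482), reached 320 CPM in hypothalamus and 596 CPM in ileum. The other 5 libraries of its group had medians of 106 and 185 CPM, so the ratios were 3.01 and 3.22.

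HSPA6, which in humans is nearly silent without stress (chr4:88970592-88973109), had 19.4 CPM in hypothalamus replicate 5 and between 2.74 and 6.88 CPM in the other 23 libraries. In ileum it had 131 CPM, 18.1 times the median of the other 5, and the next library, day 7 high replicate 2, had 38.2 CPM. This was the largest ratio of all 60 genes tested in ileum and, at 4.04 times, of the 61 in hypothalamus. HSPA8, the constitutive HSP70 of the cytosol (chr9:49982278-49986760), had smaller ratios. It had 3280 CPM against a median of 1589 CPM in hypothalamus and 5360 CPM against 1915 CPM in ileum, ratios of 2.06 and 2.8.

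Small heat shock proteins were also high in both libraries. HSPB1 (chr3:10038074-10039441) had 391 CPM in hypothalamus replicate 5 against 47.2 to 160 CPM in the other 23, and in ileum 928 CPM against 51.3 to 433 CPM. HSPB8, which works with BAG3 in the disposal of damaged proteins, had 280 CPM in hypothalamus against 57.8 to 182 CPM in the rest of its group. In ileum it had 63 CPM against 17.9 to 30.4 CPM, although day 7 high replicate 1 reached 73.7 CPM. HSPB6, the small heat shock protein of muscle, did not follow, at 93.3 CPM against a median of 79.7 CPM in hypothalamus and 88.6 against 93.5 CPM in ileum.

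**Figure D1:**
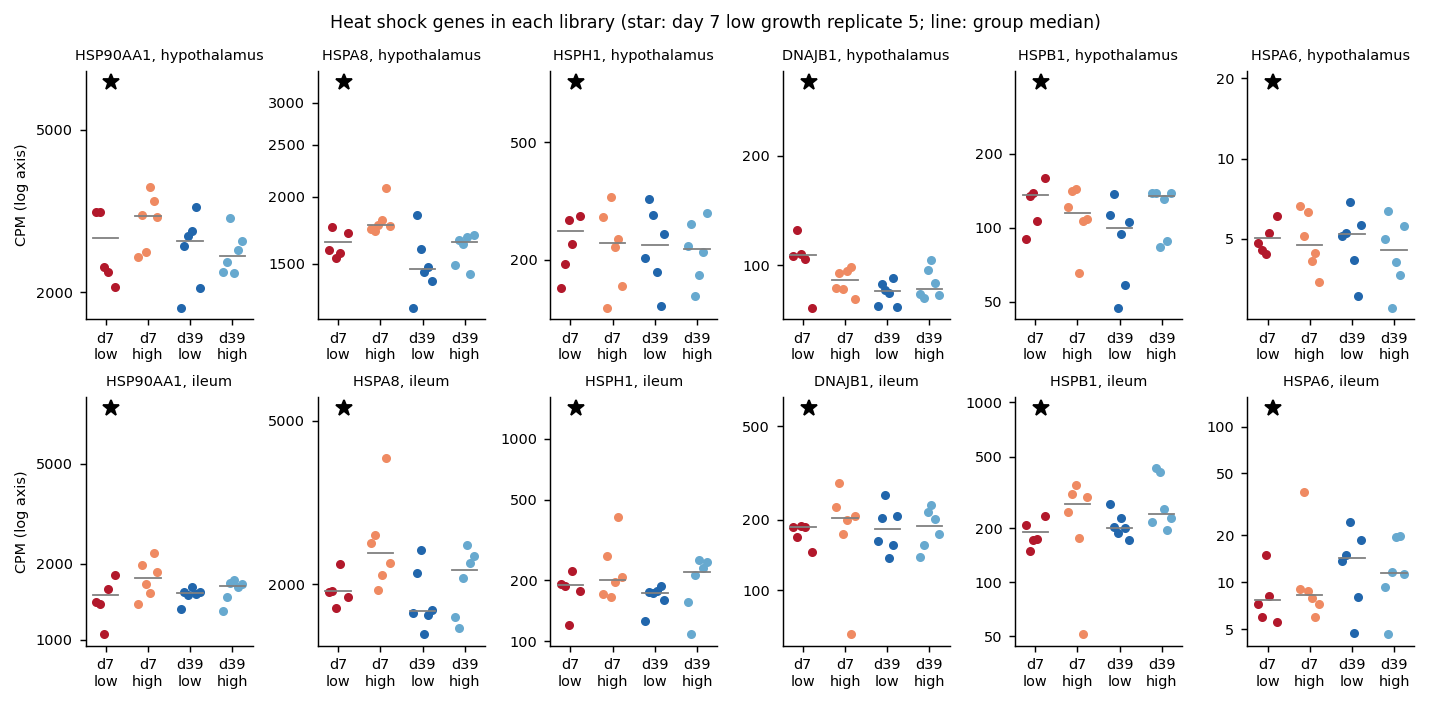
CPM (log axis) of 6 heat shock genes in each library by day and growth group, hypothalamus in the upper and ileum in the lower row; each point is a library, grey lines are group medians and the star is day 7 low growth replicate 5. The star is the highest of 24 libraries in all 12 panels, at 6540 CPM for HSP90AA1 in hypothalamus and 8307 CPM in ileum. The group medians differ most for HSPA6 in ileum, where both day 39 medians lie above both day 7 medians.

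Counted over the whole family, 15 of 61 genes (24.6%) in hypothalamus replicate 5 and 18 of 60 (30%) in ileum replicate 5 were at least 2 times the median of the other 5 libraries. Over all tested genes the shares were 7.18% and 4.4%, so neither library was high in general. Among the other 23 libraries the number of chaperone genes at that level had a median of 1 in each tissue and reached at most 5 in hypothalamus and 13 in ileum. The 13 came from ileum day 7 high replicate 5, where 19.9% of all genes passed the same limit and another 13 chaperone genes were at or below 0.5 times the median. There HSPB1 stood at 51.3 CPM against 299 CPM and DNAJB1 at 64.8 against 208 CPM, while DNAJC10 stood at 449 against 126 CPM.

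**Figure D2:**
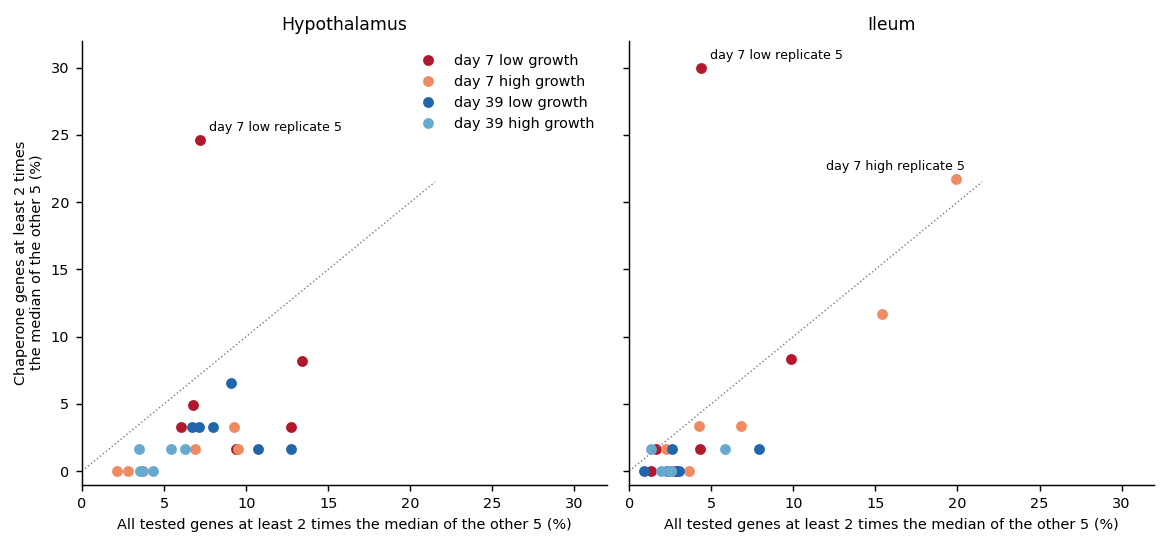
Share of chaperone genes (vertical, %) against share of all tested genes (horizontal, %) at least 2 times the median of the other 5 libraries of the group, 1 point per library, colours for day and growth, dotted line for equal shares. Day 7 low replicate 5 stands above the line at 24.6% against 7.18% in hypothalamus and at 30% against 4.4% in ileum, while ileum day 7 high replicate 5 lies near it at 21.7% against 19.9%.

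The lists of both tissues overlapped in 11 genes, 73.3% of the hypothalamus list and 61.1% of the ileum list: DNAJB1, DNAJB2, HSP90AA1, HSP90B1, HSPA1L, HSPA6, HSPA8, HSPB1, HSPB8, HSPE1 and HSPH1. Hypothalamus alone had DNAJB11, DNAJC7, HSPA4L and HSPA5 on its list. Ileum alone had DNAJA1, DNAJA4, DNAJB13, DNAJB4, HSP90AB1, HSPA4 and HSPD1. DNAJB13 was near the floor there, at 0.865 CPM against a median of 0.357 CPM, and other ileum libraries reached 1.17 CPM. Of the genes named from ileum alone, DNAJA1 stood at 922 CPM against a median of 296 CPM there and at 519 against 305 CPM in hypothalamus. DNAJA4, a J protein of the DNAJA type, differed most between the tissues. It had 32.2 CPM against 3.63 CPM in ileum, 8.87 times, while in hypothalamus it was 1.06 times the median and the other libraries of its group ran from 36.6 to 156 CPM.

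By place in the cell, the heat shock genes of the cytosol led. This group was HSPA1L, HSPA4, HSPA4L, HSPA6, HSPA8, HSPH1, HSP90AA1, HSP90AB1, DNAJA1, DNAJA4, DNAJB1, DNAJB4 and HSPB1. Not all of them are inducible, as HSPA8 is constitutive. In ileum 12 of 13 of them were at least 2 times the median of the other 5, and in hypothalamus 8 of 13, with median ratios of 3.22 and 2.06. Among the 13 genes of the endoplasmic reticulum, 3 passed in hypothalamus and 1 in ileum. HSPA5 (BiP), the HSP70 of that compartment, had 1175 CPM in hypothalamus replicate 5 against a median of 374 CPM, and HSP90B1 (GRP94) had 940 against 327 CPM. DNAJB11, a DNAJ partner of HSPA5, had 86.3 against 30.3 CPM. In ileum HSPA5 was at 1220 CPM, close to the 1183 CPM of day 7 high replicate 1, and DNAJB11 at 82.1 CPM lay inside the range of the other libraries. The difference between tissues in these genes was not tested.

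Of the 9 mitochondrial genes tested, HSPD1 and HSPE1, which form the chaperonin, were the only ones to reach 2 times the median in either library. HSPD1 had 1064 CPM against 390 CPM in ileum and 415 against 216 CPM in hypothalamus, just under the limit. HSPE1 had 446 against 218 CPM in ileum and 224 against 98.1 CPM in hypothalamus. DNAJA3, the mitochondrial DNAJ protein that starts the ATP cycle of HSPA9, stayed at 67.1 against 62.7 CPM in ileum and at 71.8 against 68.1 CPM in hypothalamus. Of the 6 DNAJ genes listed under nucleus, RNA and ribosome, DNAJC7 in hypothalamus was the single one to pass. DNAJC7 binds both HSP70 and HSP90, so it fits that list loosely, and its counts moved with oligodendrocyte markers as given further on.

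**Figure D3:**
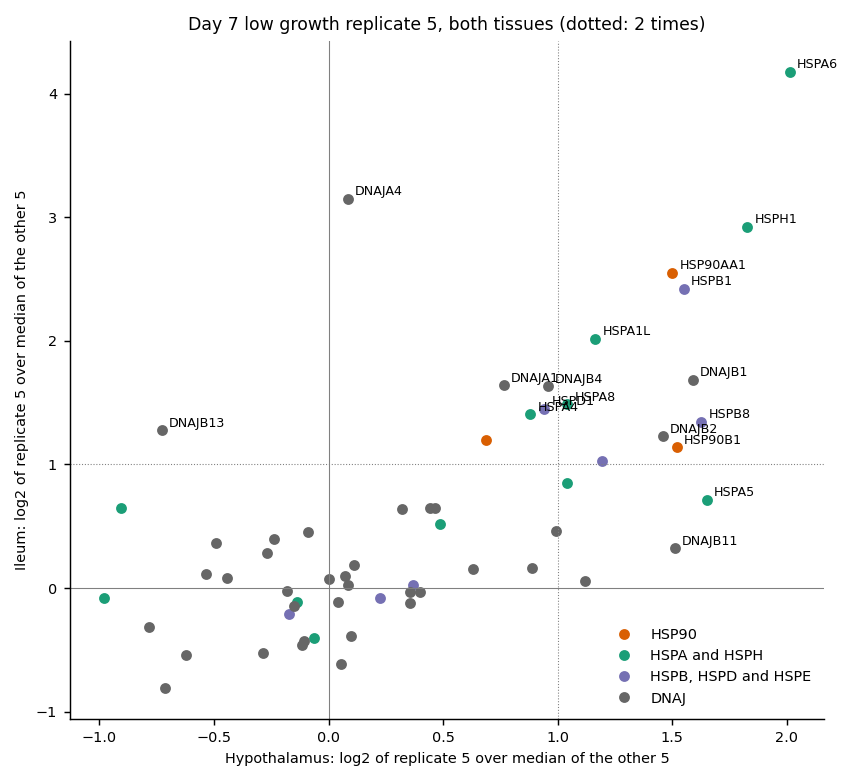
log2 of the CPM of day 7 low growth replicate 5 over the median of the other 5 libraries, hypothalamus (horizontal) against ileum (vertical), 1 point per chaperone gene, coloured by family, dotted lines at 2 times. HSPA6 lies at the upper right with 4.04 times in hypothalamus and 18.1 times in ileum, DNAJA4 is high in ileum alone at 8.87 times, and HSPA5 and DNAJB11 are further from 0 in hypothalamus.

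Some partners of these chaperones outside the name rule stood high in the same libraries. Of 31 co-chaperone genes listed for HSP70 and HSP90, 8 in hypothalamus and 9 in ileum were at least 2 times the median of the other 5. BAG3, an exchange factor of HSP70, had 108 against 20.4 CPM in hypothalamus and 193 against 36.6 CPM in ileum. CRYAB, a small heat shock protein with a crystallin name, had 1307 against 152 CPM and 76.5 against 8.81 CPM. It varied widely in hypothalamus, from 20.1 to 630 CPM over the other 23 libraries. STIP1, which links HSP70 to HSP90, had 581 against 199 CPM and 810 against 228 CPM. These are the levels of single libraries and carry no test.

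Of 22 further genes of the endoplasmic reticulum list, 5 passed in hypothalamus (CRELD2, MANF, PDIA4, PDIA6 and XBP1) and 0 in ileum. None of 11 genes of the cytosolic chaperonin TRiC and its helper prefoldin passed in either tissue. None of 4 HSF genes passed in either tissue. HSF1 stood at 46.1 against 50.6 CPM in hypothalamus and 57.5 against 74.4 CPM in ileum, while HSF4 in hypothalamus stood at 35.2 against 18.4 CPM, 1.91 times, with up to 41.6 CPM in other libraries. In the same hypothalamus library oligodendrocyte markers summed to 109708 CPM, inside their range in that group, and microglia markers to 383 CPM, the lowest of the group. Plasma cell markers summed to 239 CPM, the highest of the tissue. That sum holds XBP1 at 204 CPM and DERL3 at 10.7 CPM, both on the reticulum list, so it mostly repeats XBP1 and does not measure plasma cells. In the ileum library enterocyte markers summed to 6292 CPM, inside their range, and smooth muscle markers to 2196 CPM, the lowest of the group. The part of cell makeup, sampling order or handling in these levels was not tested.

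The comparison of low with high growth asked whether chaperone genes differ between piglets that gained little and much weight. None of the 61 genes was called on day 7 in hypothalamus by edgeR's quasi-likelihood test at an adjusted p under 0.05, and of all 15865 genes tested 0% were called. At an unadjusted p under 0.05 there were 6 of the 61 genes (9.84%), against 7.67% of all genes. DESeq2 and limma voom also called none of the 61. The median log2 fold change, low minus high growth, was 0.039 over the chaperone genes and 0.01 over all genes. Of the chaperone genes 36 were above 0 and 25 below, and of all genes 48.4% were below 0. Without low replicate 5 the median of the chaperone genes was -0.05 and that of all genes 0.0071.

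The 5 genes of lowest p were DNAJC11, DNAJB1, DNAJC10, DNAJB9 and DNAJC9, and none passed. DNAJC11, a DNAJ protein of the mitochondrial membranes, ran from 37.1 to 43.7 CPM with low growth and from 29.6 to 37.9 CPM with high growth. Its groups barely overlapped, and its log2 fold change was 0.25 ± 0.084 (SE; edgeR adjusted p = 0.549). DNAJB9, a partner of HSPA5, ran from 18.8 to 39.3 CPM with low and from 24.1 to 50.8 CPM with high growth, a log2 fold change of -0.51 ± 0.20 (SE; edgeR adjusted p = 0.561). DNAJC10, a reductase of the endoplasmic reticulum, had means of 85.5 ± 15.7 CPM (SD, n = 6) with low and 108 ± 12.5 CPM with high growth, a log2 fold change of -0.34 ± 0.12 (SE; edgeR adjusted p = 0.555). Both reticulum genes had the lower median with low growth, and their groups overlapped. DNAJC9, a J protein that handles histones, had a log2 fold change of -0.29 ± 0.12 (SE; edgeR adjusted p = 0.583).

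The values of 6 heat shock genes on day 7 moved toward or below 0 without replicate 5. DNAJB1 had a log2 fold change of 0.62 ± 0.23 (SE; edgeR adjusted p = 0.549) with all libraries and 0.19 ± 0.11 without replicate 5. HSPH1 had 0.51 ± 0.32 with it and -0.0031 ± 0.24 without it. HSP90AA1 went from 0.11 ± 0.23 to -0.22 ± 0.18, HSPA8 from 0.071 ± 0.17 to -0.15 ± 0.12, and HSPA6 from 0.57 ± 0.33 to 0.0021 ± 0.24. HSPB1 went from 0.57 ± 0.31 to 0.13 ± 0.25. None of them was called either way. Over 15 well-known chaperones followed in every comparison, the log2 fold changes ran from -0.51 for DNAJB9 to 0.62 for DNAJB1.

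On day 39 in hypothalamus 0 of 61 genes were called, against 0% of all genes. By edgeR 1 gene (1.64%) had an unadjusted p under 0.05, against 5.45% of all genes. That gene was HSPA14, an HSP70 that works at the ribosome, with 21.3 to 43.6 CPM in low and 20 to 24.8 CPM in high growth libraries. Its log2 fold change was 0.32 ± 0.14 (SE; edgeR adjusted p = 0.86), and its highest value came from day 39 low replicate 3, the library that stood apart, without which the log2 fold change was 0.16. DNAJC4 had -0.18 ± 0.099, DNAJB12 0.24 ± 0.16, HSPA5 0.36 ± 0.27 and HSPBAP1 -0.23 ± 0.18, all with an adjusted p of at least 0.96 by edgeR. Without low replicate 3 HSPA5 had 0.14 and 0 genes had an unadjusted p under 0.05, and without low replicate 5 HSPBAP1 had -0.40. HSPA5 stood at 505 CPM in low replicate 1, the library with the pituitary markers, and at 751 CPM in low replicate 3. It stood at 321 to 387 CPM in the other 4 low growth libraries. HSP90B1 showed the same 2 libraries, at 416 and 588 CPM. The 15 chaperones ran from -0.37 for HSPB1 to 0.36 for HSPA5.

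In ileum on day 7 none of the 60 genes was called by edgeR, against 0% of 15256 genes, and 1 gene (1.67%) had an unadjusted p under 0.05 against 5.65% of all genes. DESeq2 and limma voom also called none. That gene was DNAJA4, at 3.42 to 32.2 CPM with low growth and 2.02 to 6.08 CPM with high growth. Its medians were 3.87 and 3.34 CPM, and its log2 fold change of 1.34 ± 0.47 (SE; edgeR adjusted p = 0.78) became 0.24 ± 0.29 without replicate 5. DNAJC19, a DNAJ protein of mitochondrial import, had -0.55 ± 0.27, and without ileum day 7 high replicate 5, where it stood at 56.9 CPM, it had 0.0058. HSPA12B, an HSP70 relative of endothelium, had 0.33 ± 0.18 and DNAJA2 -0.26 ± 0.14, which was -0.075 without day 7 high replicate 5.

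Leaving out low replicate 5 turned the sign of 5 of 6 heat shock genes in this comparison. HSPA6 went from 1.16 ± 0.67 to -0.61 ± 0.47 on the log2 scale. HSPH1 went from 0.71 ± 0.43 to -0.39 ± 0.24, HSP90AA1 from 0.55 ± 0.34 to -0.28 ± 0.15, HSPB1 from 0.38 ± 0.40 to -0.34 ± 0.31, and DNAJB1 from 0.34 ± 0.31 to -0.14 ± 0.24. HSPA8, already slightly below 0 at -0.041 ± 0.24, went to -0.40 ± 0.19. All 6 values were thus below 0 without replicate 5, and no gene was called in either fit. The 15 chaperones ran from -0.11 for HSPA5 to 0.71 for HSPH1 with all libraries.

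On day 39 in ileum 0 of 60 genes were called and 0 had an unadjusted p under 0.05 by edgeR, against 0% and 1.06% of all genes. DESeq2 and limma voom called none. The 5 genes of lowest p were DNAJC17 (-0.30 ± 0.24), HSPA5 (-0.21), DNAJB13 (-0.71 ± 0.60), HSPBP1 (-0.33) and HSPB1 (-0.46), each with an edgeR adjusted p of 0.999. Without high replicate 2 DNAJC17 had -0.16 and HSPBP1 -0.11, and without low replicate 1 DNAJB13 had -1.12. The groups overlapped, as HSP90AA1 shows with 1326 to 1620 CPM in low and 1299 to 1725 CPM in high growth libraries. HSPH1 ran from 126 to 188 CPM and from 108 to 253 CPM. The 15 chaperones ran from -0.46 for HSPB1 to 0.11 for DNAJB9.

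The change of the growth effect from day 7 to day 39 was tested as well. It called 0 of 61 genes in hypothalamus and 0 of 60 in ileum, against 0% of all genes in both, with 7 and 0 genes at an unadjusted p under 0.05 by edgeR. Without low replicate 5 of day 7 the 7 became 4. In hypothalamus the lowest p belonged to DNAJC4, a mitochondrial DNAJ protein, at -0.34 ± 0.14 (SE; edgeR adjusted p = 0.627). Its low growth median was 96.9 CPM on day 7 and 81.8 CPM on day 39, and its high growth median 89.9 and 92.7 CPM. DNAJC10 had 0.40 ± 0.18, DNAJB1 -0.72 ± 0.32, HSPB1 -0.94 ± 0.44 and HSPBP1 -0.38 ± 0.18. Without replicate 5 DNAJB1 had -0.29 ± 0.15 and HSPB1 -0.50 ± 0.34. HSP90B1 went the other way, from 0.14 ± 0.34 to 0.55 ± 0.21, and HSPA5 from 0.075 ± 0.38 to 0.53 ± 0.25. Low replicate 1 of day 39, with the pituitary markers, and low replicate 3, which stood apart, were still in this fit. In ileum the lowest p belonged to DNAJA4, at -1.35 ± 0.66 with and -0.25 ± 0.40 without replicate 5, followed by HSPH1 (-0.99, and 0.11 without it), HSPA12B (-0.38), DNAJB14 (0.42, and 0.10 without day 7 high replicate 5) and HSPB1 (-0.84, and -0.12 without low replicate 5). The 15 chaperones ran from -0.94 for HSPB1 to 0.41 for DNAJB9 in hypothalamus and from -0.99 for HSPH1 to 0.18 for DNAJB9 in ileum.

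Age after weaning was compared as day 39 minus day 7, averaged over growth. In hypothalamus 0 of 61 genes were called by edgeR, against 0.0315% of all genes, and 8 genes (13.1%) had an unadjusted p under 0.05 against 9.62% of all genes. DNAJB2, a DNAJ protein that passes clients to the proteasome, had a mean of 262 ± 123 CPM (SD, n = 12) on day 39 and 417 ± 197 CPM on day 7. Its log2 fold change was -0.66 ± 0.27 (SE, edgeR adjusted p = 0.469). HSPA13, an HSP70 of microsomes, ran from 89.3 to 182 CPM on day 39 and from 40.8 to 157 CPM on day 7, a log2 fold change of 0.45 ± 0.19 (SE; edgeR adjusted p = 0.475). DNAJA3 had -0.16 ± 0.063, DNAJC10 0.22 ± 0.088 and DNAJB1 -0.38 ± 0.16, which was -0.16 without day 7 low replicate 5. Oligodendrocyte markers had group medians of 73920 and 101218 CPM on day 7 and 18920 and 49659 CPM on day 39, and DNAJB2 moved with them across libraries, as described next. Their part in its difference between days was not tested.

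In ileum 0 of 60 genes were called for day, against 0.439% of all genes, and 9 genes (15%) had an unadjusted p under 0.05 by edgeR against 8.85%. The values leaned to lower levels on day 39, with 44 of 60 genes below 0, against 52.7% of all genes. Their median was -0.14 on the log2 scale, against -0.019 over all genes. The median was -0.083 without day 7 low replicate 5, -0.08 without day 7 high replicate 5 and -0.037 without both, and 4, 5 and 5 genes then had an unadjusted p under 0.05 by edgeR. DNAJB4, a DNAJ protein of the cytosol, had 14.4 to 24.9 CPM over both groups of day 39 and 18 to 75.8 CPM over both of day 7. Its log2 fold change of -0.60 ± 0.20 (SE; edgeR adjusted p = 0.282) became -0.37 ± 0.15 without replicate 5. HSPA5 had -0.34 ± 0.12 (SE; edgeR adjusted p = 0.38), with group medians of 772 and 811 CPM on day 7 and 636 and 722 CPM on day 39, and -0.27 ± 0.12 without replicate 5.

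Of the 13 heat shock genes of the cytosol tested in ileum, 12 were below 0, with a median of -0.38. Of the 13 genes of the endoplasmic reticulum 11 were, with a median of -0.18, against 52.7% of all genes. These counts and medians include day 7 low replicate 5, and they were not computed for the 2 groups without it. Without replicate 5 HSPH1 went from -0.73 ± 0.31 to -0.18 ± 0.16, HSP90AA1 from -0.47 ± 0.24 to -0.060 ± 0.10, and DNAJA1 from -0.45 ± 0.18 to -0.23 ± 0.12. DNAJC10, with 449 CPM in day 7 high replicate 5, had -0.52 ± 0.18 with all libraries and -0.27 without that one. None of these values was called. For day the 15 chaperones ran from -0.73 for HSPH1 to 0.36 for HSPA1L in ileum and from -0.41 for HSPB1 to 0.046 for DNAJB9 in hypothalamus.

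Pathway genes outside the name rule were not called either. Of 4 HSF genes, 31 co-chaperones and 11 chaperonin or prefoldin genes, 0 were called for growth or day in either tissue by edgeR. The same held for the 29 genes of the endoplasmic reticulum list and the 16 of the mitochondrial list, which include chaperone genes already counted. In hypothalamus on day 7 the lowest p of these lists belonged to CANX, CLPX and GAK, with log2 fold changes of -0.33 ± 0.12, -0.39 ± 0.14 and 0.28 ± 0.10 (SE; edgeR adjusted p = 0.549, 0.549 and 0.555). In ileum on day 7 BAG3, which was high in replicate 5, had 0.76 ± 0.37 (SE; edgeR adjusted p = 0.846).

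Several chaperone genes varied widely between libraries of the same group. The within-group SD of log2 CPM, whose median over all genes was 0.41 in hypothalamus and 0.43 in ileum, was largest in hypothalamus for DNAJB13 (1.22), DNAJC5B (1.03), HSPA12A (0.92) and DNAJC7 (0.87). It was smallest there for DNAJC11 (0.11), DNAJC8 (0.12) and DNAJA3 (0.13). In ileum it was largest for HSPA6 (1.11), HSPB6 (0.79), HSPB1 (0.76) and HSPH1 (0.73), and smallest for DNAJC15 (0.15). Without replicate 5 the ileum value was 0.78 for HSPA6 and 0.40 for HSPH1, while HSPB6 kept 0.81.

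Several of the variable genes followed markers of a cell type from library to library. Values were taken as log2(CPM + 0.5), less the mean of the library's group, and set against the mean of the markers over the 24 libraries of a tissue, with 786 relations computed in all and p-values from 100000 permutations within groups, adjusted over all of them. All these genes and markers come from the same libraries, and in bulk tissue fewer cells of a type and less RNA per cell cannot be told apart. As CPM values are shares, more RNA of one cell type lowers the share of the others. In hypothalamus 21 of 61 genes were related to neuron markers at an adjusted permutation p under 0.05 for r, 10 positively and 11 negatively. Of all genes outside the marker list, 29.5% were related at the same limit, an unadjusted p of 0.0054. Ependyma and motile cilia markers gave 18 genes, 4 positively and 14 negatively, against 29.5% of all genes, and oligodendrocyte markers 13, 7 and 6, against 27.7%. Microglia markers gave 3 against 5.21%, and astrocyte and choroid plexus markers 0 against 2.85% and 1.29%. In hypothalamus these counts lie near the shares of all genes, so they are not particular to the chaperone genes.

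In ileum enteric neuron markers gave 10 of 60 genes, 5 positively and 5 negatively, against 15.5% of all genes, and smooth muscle markers 9, 3 and 6, against 6.38%. Of these, 5 and 6 also passed by Spearman's rho. Goblet cell and B cell markers gave 5 each against 14.1% and 11.8%, enterocyte markers 3 against 4.43%, and plasma cell and T cell markers 0 against 3.62% and 1.37%. Single genes with close relations are described next.

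HSPA12A, a distant HSP70 relative, followed neuron markers most closely. Its level in hypothalamus ran from 15 CPM in day 7 high replicate 2 to 154 CPM in day 7 high replicate 3, with r = 0.97 and rho = 0.97 (n = 24, permutation p = 1e-05 for both, the smallest these permutations can give, adjusted p = 0.000655). Without the 2 libraries farthest from the median of the markers r stayed at 0.97. DNAJC18 (r = 0.90), DNAJC27 (r = 0.88) and DNAJC5 (r = 0.82) also moved with neuron markers, each with an adjusted permutation p of 0.000655 for r. DNAJC5 is the cysteine string protein that guards synaptic vesicles. DNAJC14 (r = -0.84) and DNAJC1 (r = -0.83) ran opposite to them, with adjusted permutation p of 0.000655 and 0.00112. Spearman's rho for these 5 lay between 0.87 and 0.90 in size, and r without the 2 farthest libraries between 0.80 and 0.86.

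DNAJC7, a DNAJ protein that binds both HSP70 and HSP90, followed oligodendrocyte markers. It ran from 104 CPM in day 39 low replicate 1 to 887 CPM in day 7 low replicate 1, with r = 0.92 and rho = 0.97 (n = 24, permutation p = 1e-05 for both, adjusted p = 0.000655) and r = 0.96 without the 2 farthest libraries. DNAJB2 ran from 123 to 824 CPM, with r = 0.87 and rho = 0.93 (n = 24, permutation p = 1e-05 for both, adjusted p = 0.000655) and r = 0.90 without the 2 farthest. DNAJC3, an inhibitor of the stress kinase PERK that sits in the endoplasmic reticulum, had r = 0.87 and rho = 0.84 (n = 24, permutation p = 1e-05 for both, adjusted p = 0.000655), with 0.78 without the 2 farthest. DNAJC12, which binds the enzymes that make serotonin and dopamine, ran the other way with r = -0.77, rho = -0.77 and r = -0.75 without the 2 farthest (n = 24, permutation p = 1e-05 and 0.00013, adjusted p = 0.000655 and 0.00365). Both genes were counted above as high in hypothalamus replicate 5, where DNAJC7 had 754 CPM, below its highest library, and DNAJB2 had 824 CPM against at most 682 CPM elsewhere.

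DNAJB13, a protein of the radial spokes of cilia and sperm tails, followed the markers of ependyma and motile cilia. It ran from 0.658 to 16.1 CPM in hypothalamus, with r = 0.93 and rho = 0.86 (n = 24, permutation p = 1e-05 for both, adjusted p = 0.000655) and r = 0.91 without the 2 farthest libraries. DNAJC5B, a relative of DNAJC5, had r = 0.88 with microglia markers, and 0.70 without the 2 farthest libraries, and rho = 0.65 (n = 24, permutation p = 9e-05 and 0.00335, adjusted p = 0.00283 and 0.0333). It ran from 0.0598 CPM in day 39 low replicate 3, which had the lowest sum of microglia markers in its tissue, to 15 CPM in day 39 low replicate 6. Its counts were small.

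In ileum HSPB6 followed smooth muscle markers, with r = 0.90 and rho = 0.86 (n = 24, permutation p = 3e-05 and 2e-05, adjusted p = 0.00157 and 0.00105) and r = 0.81 without the 2 farthest libraries. It had 330 CPM in day 7 high replicate 1, where smooth muscle markers summed to 10787 CPM, and 15.8 CPM in day 7 high replicate 5. The other 22 ileum libraries ran from 62.8 to 169 CPM. HSPA9, the HSP70 of mitochondria, ran opposite with r = -0.72, rho = -0.81 and r = -0.65 without the 2 farthest (n = 24, permutation p = 1e-05 for both, adjusted p = 0.000655). HSPB8 followed enteric neuron markers, with r = 0.81, rho = 0.80 and r = 0.69 without the 2 farthest (n = 24, permutation p = 9e-05 and 4e-05, adjusted p = 0.00283 and 0.00157). Its highest value, 73.7 CPM, lay in day 7 high replicate 1, where smooth muscle markers were highest too. The next, 63 CPM, lay in day 7 low replicate 5.

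**Figure D4:**
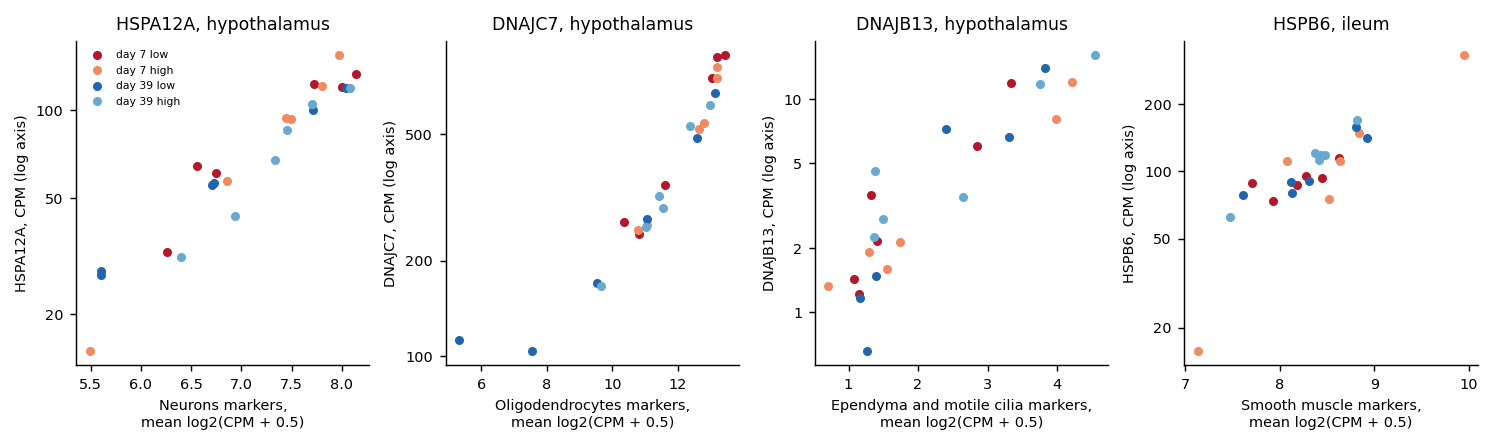
CPM (log axis) of HSPA12A, DNAJC7 and DNAJB13 in hypothalamus and HSPB6 in ileum against the mean log2(CPM + 0.5) of the markers of a cell type, 1 point per library, coloured by day and growth. HSPA12A runs from 15 to 154 CPM with neuron markers and DNAJC7 from 104 to 887 CPM with oligodendrocyte markers, with all 4 groups along 1 band, and the ends of the HSPB6 panel are 2 day 7 high growth libraries.

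The comparison of ileum with hypothalamus used 1 fit over all 48 libraries. It called 51 of 61 chaperone genes (83.6%), 24 higher and 27 lower in ileum, while 85.1% of all 16976 genes were called, so the share of chaperone genes called was about that of any gene. The sizes were smaller, with a median absolute log2 fold change of 0.72 against 1.14 over all genes, and 12 of 61 (19.7%) past a log2 fold change of 2 either way against 32%. DNAJC5B, kept through hypothalamus alone, is counted among the 27 called lower and among the 12. For 10 genes (16.4%) the 24 libraries of one tissue did not overlap the 24 of the other, against 24.9% of all genes. Of those 10, 8 were higher in hypothalamus and 2, DNAJC22 and DNAJC2, in ileum. Levels in this comparison are CPM on the common scale of both tissues.

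Of 7 DNAJ genes of vesicles, synapses and neurons, 5 were called, 4 lower and 1 higher in ileum. The 4 include DNAJC5B, which was kept through hypothalamus alone. DNAJC6, auxilin, which strips clathrin from synaptic vesicles, ran from 241 to 567 CPM in hypothalamus and from 8.43 to 39.5 CPM in ileum. Its log2 fold change, ileum over hypothalamus, was -4.52 ± 0.15 (SE; edgeR adjusted p = 4.3e-29). HSPA12A ran from 15.5 to 158 CPM in hypothalamus and from 1.36 to 5.03 CPM in ileum, a log2 fold change of -5.14 ± 0.23 (SE; edgeR adjusted p = 1.81e-24). DNAJC5B had a median of 3.71 CPM in hypothalamus and a median of 0 in ileum, with at most 0.123 CPM, so its fitted value of -8.16 depends on how zeros are treated. It passed the filter on low counts through hypothalamus alone, so its difference is given as a description and supports nothing here. DNAJC27 ran from 16.2 to 57 CPM and from 1.38 to 6.38 CPM, without overlap. DNAJB2, which followed oligodendrocyte markers in hypothalamus, had a log2 fold change of -3.43 ± 0.18. DNAJC13, of endosomes, was the gene higher in ileum, at 0.55 ± 0.089. DNAJB6 was not called, at 0.071, nor was DNAJC5, at -0.09 with a 95% interval of -0.39 to 0.21.

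Other genes were also lower in ileum by large factors. DNAJC12 had a log2 fold change of -4.27 ± 0.19 (SE; edgeR adjusted p = 1.14e-24), with 12.8 to 52.8 CPM in hypothalamus and 0.706 to 3.4 CPM in ileum. DNAJA4 had -4.67 ± 0.25 (SE; edgeR adjusted p = 5.63e-22), with medians of 103 and 3.53 CPM, and the 31.5 CPM of ileum day 7 low replicate 5 was still below the lowest hypothalamus library at 37.3 CPM. DNAJC18, of the endoplasmic reticulum membrane, had the lowest p of all 61 genes, with 101 to 161 CPM against 17.7 to 34 CPM and a log2 fold change of -2.43 ± 0.066 (SE; edgeR adjusted p = 1.43e-32). All 3 were separated by tissue without overlap.

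DNAJC22, a membrane DNAJ protein whose fly counterpart wurst acts in endocytosis (chr5:15322489-15335038), was the most ileal of the genes. It ran from 12.2 to 37 CPM in ileum and from 0.124 to 1.62 CPM in hypothalamus, a log2 fold change of 5.10 ± 0.18 (SE; edgeR adjusted p = 2.98e-28). DNAJC2 and HSPA14, which together form the chaperone pair at the exit of the ribosome, were both higher in ileum. DNAJC2 had 30.2 to 80 CPM against 13.1 to 24.2 CPM, a log2 fold change of 1.53 ± 0.084 (SE; edgeR adjusted p = 3.13e-21). HSPA14 had medians of 54.1 and 24.5 CPM and a log2 fold change of 1.14 ± 0.076 (SE; edgeR adjusted p = 3.7e-18). DNAJC9 had 1.11 ± 0.074, with medians of 60.1 and 27.4 CPM.

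All 13 genes of the endoplasmic reticulum group were called, 6 higher and 7 lower in ileum. HSPA5 had 492 to 1194 CPM in ileum and 309 to 1142 CPM in hypothalamus, a log2 fold change of 0.80 ± 0.11 (SE; edgeR adjusted p = 9.12e-09). DNAJB11 had 1.02 ± 0.10 and HSP90B1 0.66 ± 0.11. HSPA13 had -2.36 ± 0.15, DNAJB9 -0.71 ± 0.12 and DNAJC3 -0.57 ± 0.11. Of the 9 mitochondrial genes, 8 were called, with HSPD1 at 0.82 ± 0.10 and HSPE1 at 0.86 ± 0.11, and DNAJC19 at -1.08 ± 0.11. The reticulum and mitochondrial members thus did not move in 1 direction.

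Among the heat shock genes of the cytosol 11 of 13 were called, 6 higher in ileum and 5 lower. HSPA6 had 1.51 ± 0.28, HSPB1 1.03 ± 0.19, DNAJB1 0.97 ± 0.14 and HSPA8 0.33 ± 0.10, all higher in ileum. HSP90AA1 was lower in ileum, with medians of 1559 and 2743 CPM and a log2 fold change of -0.69 ± 0.15 (SE; edgeR adjusted p = 3.71e-05), and DNAJB4 had -1.02 ± 0.12. Without both low growth replicate 5 libraries of day 7, ileum day 7 high replicate 5 and hypothalamus day 39 low replicate 3, HSPA6 had 1.31 ± 0.19, HSP90AA1 -0.79 ± 0.072 and DNAJB1 1.04 ± 0.071.

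The 10 genes not called were HSPH1, DNAJA1, DNAJC5, DNAJA3, DNAJA2, DNAJC8, DNAJB6, HSPBP1, HSPB6 and HSPBAP1. For DNAJC8, a splicing protein, the 95% interval of the log2 fold change was -0.069 to 0.16, and for DNAJA3 -0.19 to 0.062. For HSPH1 it was wider, from -0.53 to 0.26. Without the 4 libraries just named, HSPH1 (-0.28, edgeR adjusted p = 0.0212), DNAJB6 (0.14, edgeR adjusted p = 0.00755), HSPB6 (0.35, edgeR adjusted p = 0.0224) and HSPBP1 (0.22, edgeR adjusted p = 0.039) were called as well, 55 genes in all. That choice of libraries was made after the data were seen.

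**Figure D5:**
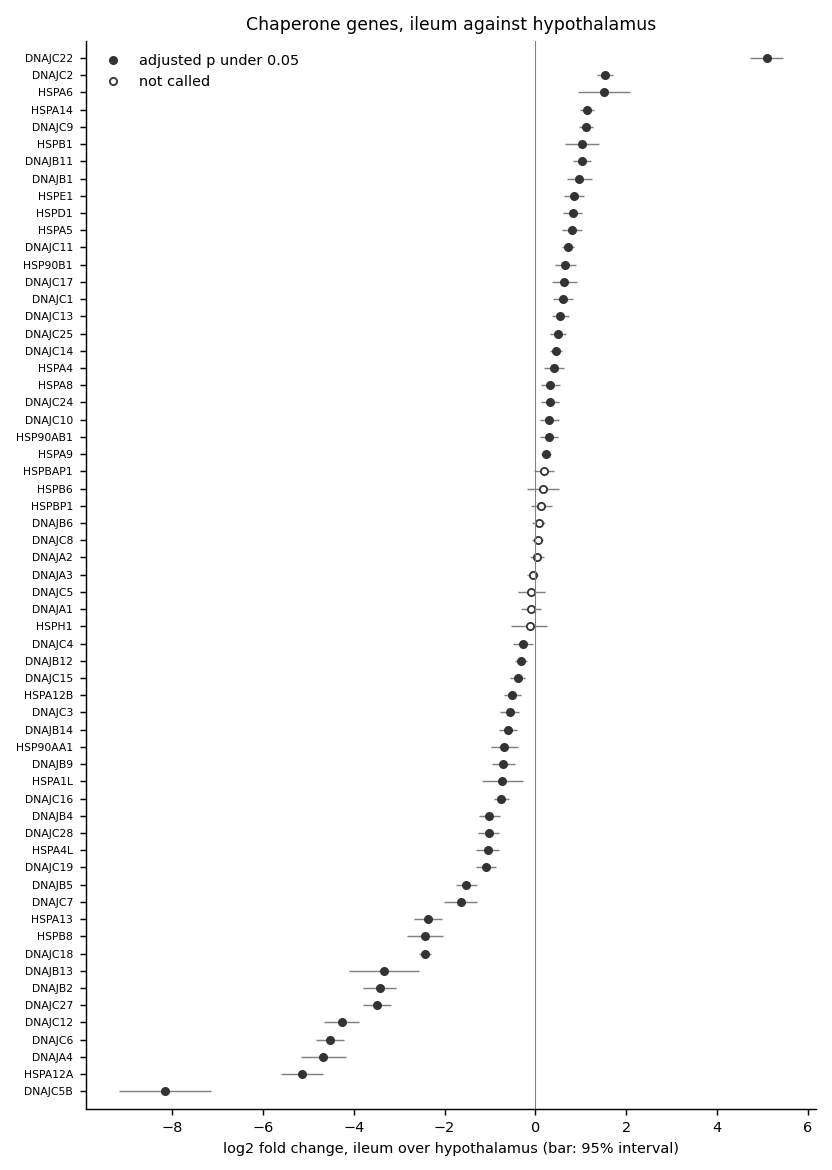
log2 fold change of ileum over hypothalamus (horizontal) with its 95% interval (bars) for 61 chaperone genes (vertical, ordered by value), 24 libraries per tissue, filled points called by edgeR and open points not called. The values run from -8.16 for DNAJC5B, which passed the filter through hypothalamus alone, to 5.10 for DNAJC22, and most lie within 1 of 0, with a median absolute value of 0.72.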

How the data were processed

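PolyA RNA was sequenced in 24 hypothalamus and 24 ileum libraries. The authors deposited 1 table of estimated counts per gene, made with Trim Galore and kallisto on build Sscrofa11.1, per the submitters' processing notes, which also name DESeq2. No version of these tools is stated. Of the deposited values 53% were not whole, and all were rounded to whole counts, which moved none by more than 0.5. Library totals of 14.2 to 23.2 M limit precision most for genes of few counts, and intervals cover counting and library spread only. Gene symbols and positions came from a RefSeq table of the same build.

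Each tissue was fitted with edgeR 4.0.16 in R 4.3.3 (TMM scaling, filterByExpr, quasi-likelihood test, 4 groups), and both tissues together in 8 groups. The fits tested 15865, 15256 and 16976 genes, with Benjamini-Hochberg adjustment over all genes and a call at an adjusted p under 0.05. CPM are scaled by TMM within a tissue, or over both tissues in the tissue comparison, and are not per length. Comparisons of growth, day and tissue share libraries. The fitting was checked on simulated counts with known changes. Alternatives were DESeq2 1.42.0, limma 3.58.1 voom, other scaling, other filters and leaving out libraries. Correlations used Python 3.11.15 with numpy 2.4.6, and figures matplotlib 3.10.9.

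The genes, lists and comparisons were chosen with earlier results of these data known. Named genes are the called ones (of many, the 6 highest, 6 lowest and 6 of lowest p), or the 5 of lowest p where none was called. A set of 17 chaperones, of which 15 were matched and tested, is named singly or as a range. Of other lists, up to 3 genes of lowest p may be named. Genes outside this rule were named after their values were seen.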

Additional observations from a re-analysis of the deposited data

Results flagged for a closer look

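Of 342 pairs of a chaperone gene and a group of 6 libraries, covering 43 genes, 55 (16.1%) had 1 library whose gap to the nearest other passed Dixon's 95% critical value for the group's range. For independent normal values about 1 in 20 would pass, but CPM need not be normal and genes of 1 library are not independent. The share over all genes was not computed, so the 16.1% cannot be read as particular to the chaperone genes. Values below are the CPM of that library.

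In hypothalamus 12 of the 55 came from day 7 low replicate 5, all on the high side. They were HSP90AA1 at 6540, HSPA8 at 3280, HSPA5 at 1175, HSP90B1 at 940, HSPH1 at 801 and HSPD1 at 415 CPM. The others were HSPB1 at 391, DNAJB1 at 320, HSPA9 at 285, HSPE1 at 224, DNAJB4 at 86.5 and HSPA6 at 19.4 CPM.

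In ileum 14 came from day 7 low replicate 5, again on the high side. They were HSP90AA1 at 8307, HSPA8 at 5360, HSP90AB1 at 3333, HSPH1 at 1418, HSPD1 at 1064, HSPB1 at 928 and DNAJA1 at 922 CPM. The others were DNAJB1 at 596, HSPE1 at 446, HSPA6 at 131, DNAJB4 at 75.8, DNAJB2 at 58.3, DNAJA4 at 32.2 and HSPA1L at 3.28 CPM.

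Ileum day 7 high replicate 5, a library that also stood apart over all genes, gave 10. They were HSPA8 at 4051, DNAJC10 at 449, DNAJA2 at 149, HSPA14 at 108 and DNAJB14 at 91 CPM. The others were DNAJC19 at 56.9, DNAJC18 at 36, HSPBAP1 at 26.2, HSPA12B at 9.59 and DNAJC27 at 6.74 CPM.

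Ileum day 39 low replicate 1 gave 4, with HSP90AA1 at 1326, DNAJC4 at 97.5, HSPBP1 at 65.1 and HSPA13 at 11.7 CPM. Ileum day 7 low replicate 3 gave 3, with DNAJC9 at 44.8, DNAJC6 at 40 and DNAJC22 at 37.4 CPM.

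The remaining libraries gave 1 each. In hypothalamus these were HSPA8 in day 7 high replicate 5 at 2076 CPM and HSP90B1 in day 39 low replicate 3 at 588 CPM. DNAJB9 in day 39 low replicate 5 stood at 52.9 CPM and HSPA14 in day 39 high replicate 2 at 20 CPM. In ileum HSP90B1 in day 7 high replicate 1 stood at 1015 CPM, DNAJC3 in day 39 low replicate 3 at 104 CPM and HSPA6 in day 7 high replicate 2 at 38.2 CPM. DNAJC6 in day 39 low replicate 5 stood at 25.1 CPM and DNAJC18 in day 7 low replicate 1 at 22.9 CPM. DNAJC17 in day 39 high replicate 2 stood at 20.5 CPM, DNAJC19 in day 39 high replicate 6 at 18.8 CPM and HSPA12B in day 39 low replicate 2 at 10.5 CPM.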

How the results depend on the processing

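No chaperone gene was called for growth, growth by day or day in either tissue by edgeR, DESeq2 or limma voom, with other scaling or filters, or with any single library left out. The tissue count of 51 ran from 47 (day 39 libraries alone) to 55. Of 1680 single-gene values under alternatives, 27 changed sign, none of them called, and the cause was not tested. Leaving out each library in turn, day 7 growth in hypothalamus ran from -0.0031 to 0.64 for HSPH1, from -0.22 to 0.21 for HSP90AA1 and from -0.15 to 0.12 for HSPA8. In ileum it ran from -0.66 to 0.0058 for DNAJC19, from -0.61 to 1.88 for HSPA6, from -0.14 to 0.49 for DNAJB1, from -0.39 to 0.95 for HSPH1, from -0.28 to 0.72 for HSP90AA1, from -0.40 to 0.14 for HSPA8 and from -0.34 to 0.54 for HSPB1. Growth by day in ileum ran from -1.23 to 0.11 for HSPH1. With limma voom HSP90AA1 had -0.00054 in hypothalamus, and without scaling HSPA8 had 0.042 in ileum, both on day 7. Without day 7 low replicate 5 and day 39 low replicate 3, a choice made after seeing the data, hypothalamus day 7 growth was -0.0025 for HSPH1, -0.22 for HSP90AA1 and -0.15 for HSPA8. Without day 7 low and high replicate 5, chosen likewise, ileum day 7 growth was 0.082 for DNAJC19, -0.76 for HSPA6, -0.32 for DNAJB1, -0.17 for HSPH1, -0.21 for HSP90AA1 and -0.56 for HSPB1, and growth by day was 0.099 for HSPB1. No paired analysis was run because the labels give no replicate numbers and do not say which libraries share an animal. The growth classes follow the same order in both tissues, but pairing by that order would be an assumption. Depth limits DNAJC5B and DNAJB13 in ileum and DNAJC22 in hypothalamus most, where the median CPM of the tested genes was lowest.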
